A study of Homo sapiens with 4 samples.

Results

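Amino acids enter and leave cells, and cross the lysosomal membrane, through transporters of several solute carrier (SLC) families. The genes described here are those of the SLC1, SLC3, SLC6, SLC7, SLC36, SLC38 and SLC43 families, chosen by symbol from the protein coding genes of the deposited table. They number 59 of the 20372 genes in the table. The question was how their RNA differed between 6 h and 24 h of RET inhibition in thyroid cancer cells.

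RNA came from TPC1 cells, an established line from a human papillary thyroid carcinoma with a CCDC6-RET fusion. All libraries were from cells exposed to BLU6864, a RET inhibitor, for 6 h (2 libraries) or 24 h (2 libraries). The paper's methods give DMEM with 10% serum for TPC1 cells used in Western blots. They name no medium where the RNA treatment is described. The labels give a dose of 100 µM and the methods 100 nM. The labels mark both 24 h libraries as a re-analysis, which cannot be told apart from the time. No vehicle library is part of this comparison, so longer exposure to the drug and longer time in culture cannot be told apart. Nothing states that the libraries of a time came from separate cultures, so P-values measure only the spread between these libraries, which may be technical. Library totals were 23917056 to 27457040 counts. Of the thyroid markers, PAX8 was abundant and not called, and DIO1 was measurable and not called. FOXE1 was called higher at 24 h (log2 fold change 0.84) and TG lower (-1.09). SLC5A5 and DIO2 had at most 7 counts in a library, and NKX2-1 and TSHR were at 0. Of 7 white blood cell markers, only CD14 exceeded 5 counts in any library (85 and 91 at 24 h against 47 and 41 at 6 h), and the summed normalized counts of the 7 were 90.5 to 91.7 at 24 h and 46.1 to 54.0 at 6 h. Of 5 epithelial markers, KRT19 was called lower, KRT8 and KRT18 were not called, and EPCAM and CDH1 had at most 11 counts in a library. Of 3 endothelial markers, VWF was called lower, with 16 and 11 counts at 6 h and 3 and 5 at 24 h (log2 fold change -1.77), CDH5 had at most 1 count in a library, and PECAM1 was not analysed here. The part of other cells in the results below was not tested.

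As background, the SLC7 family divides into cationic amino acid transporters, which work alone, and light subunits, which reach the plasma membrane only when joined by a disulfide bond to a heavy subunit of the SLC3 family. The SLC1 family holds sodium-driven glutamate transporters and the neutral amino acid exchangers SLC1A4 and SLC1A5. SLC38 proteins carry glutamine and other small neutral amino acids, and some SLC36 proteins couple small amino acids to protons. SLC43 proteins carry large neutral amino acids, apart from SLC43A3, a purine base transporter. The SLC6 family mixes amino acid carriers with transporters of neurotransmitters, taurine and creatine. Many tumor cells depend on imported glutamine, leucine and cystine, and several of these genes are induced when amino acids run short. Not every gene under these symbols is a transporter. SLC7A6OS encodes a nuclear import factor and is named only for its place opposite SLC7A6.

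Between 6 h and 24 h, both heavy subunit genes rose, as did the leucine carrier SLC7A5, while the cystine carrier SLC7A11, the glutamate carriers SLC1A2 and SLC1A3, and the leucine carrier SLC43A2 fell. Of the 59 genes, 31 had enough counts to be tested, 14 had a few counts, and 14 had 0 counts in every library. A gene was called when its log2 fold change (log2FC, 24 h over 6 h) was over 0.5 in size with an unadjusted P under 0.01 in edgeR's quasi-likelihood test. Of the 31 tested, 8 were higher at 24 h (25.8%), and 17.4% of all 12876 genes tested were called higher. Another 7 were lower (22.6%), against 17.7% of all genes, and 16 were not called. With a Benjamini-Hochberg adjusted P under 0.05 and no cutoff on size, 14 of the 31 tested members were higher and 8 of the 31 lower. Of all genes, 33.0% and 32.6% passed in those directions. With a cutoff of 1 on the size of the change, 3 of the 31 were higher and 5 of the 31 lower. The shares of all genes were 6.96% and 8.27%. The libraries of the 2 times did not overlap in 29 of the 31 (93.5%), and they did not overlap in 81.8% of all genes. The median log2FC of the tested members was 0.15, with 0.0029 over all genes, and the median size of the change was 0.46, with 0.37 over all genes. Members were called in both directions in the SLC6, SLC7 and SLC43 families. Both tested SLC3 genes were called higher, both called SLC38 genes were higher, and the called SLC1 and SLC36 genes were lower.

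**Figure D1:**
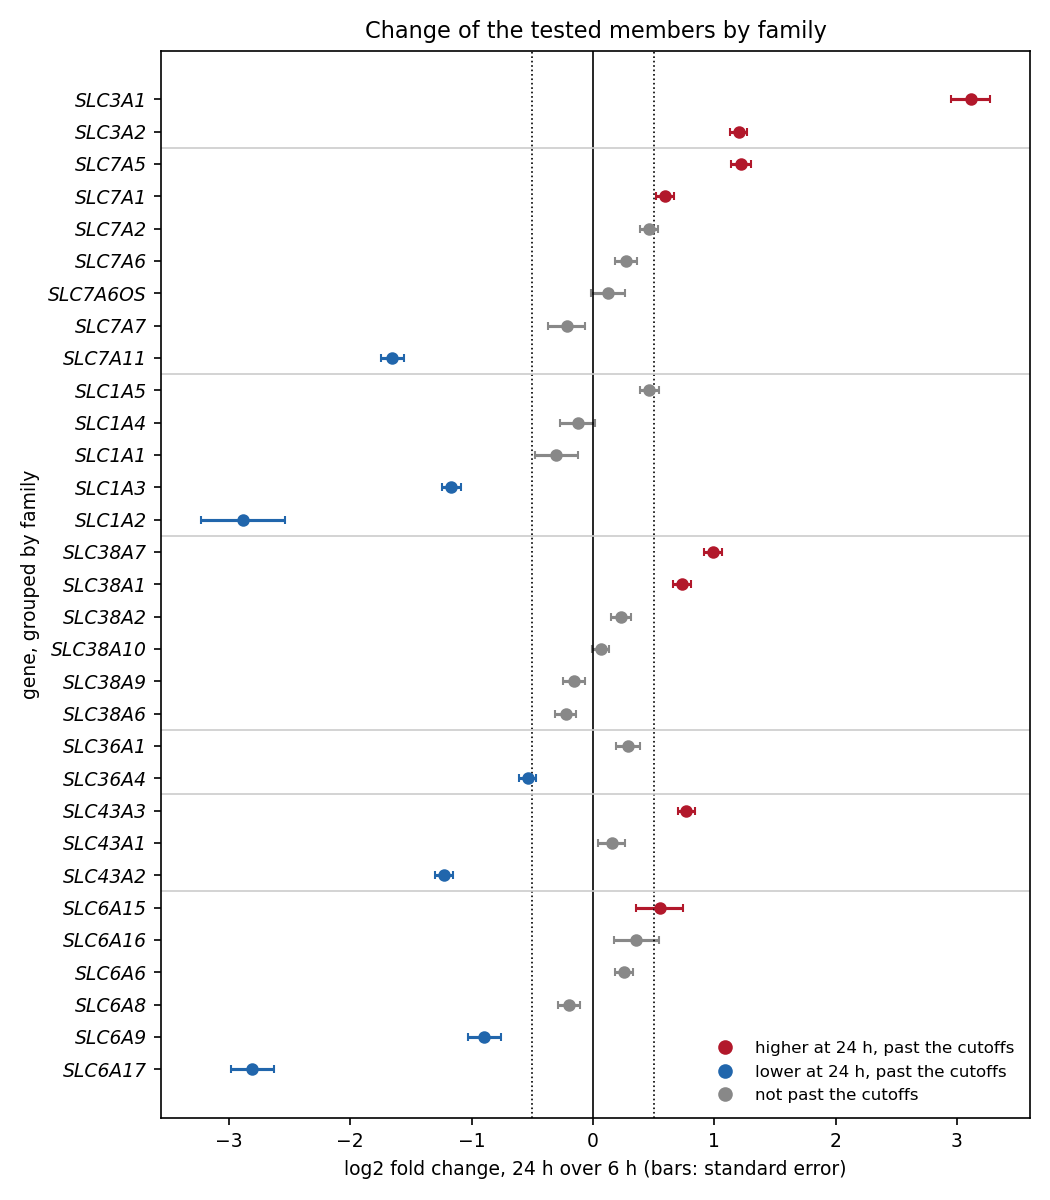
The log2FC of the 31 tested members, 24 h over 6 h, is plotted on the x axis, with 1 gene per line grouped by family. Bars are standard errors, and dotted lines mark 0.5 and -0.5. SLC3A1 lies farthest to the right at 3.11 and SLC1A2 farthest to the left at -2.89, and called genes of both directions occur in SLC7, SLC43 and SLC6.

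**Figure D2:**
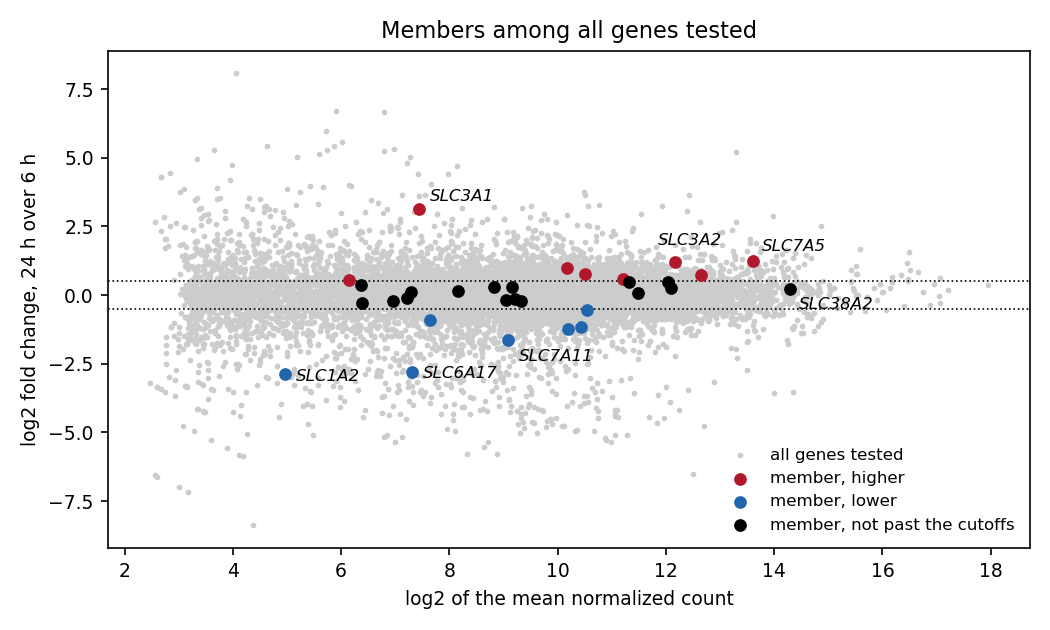
Each grey point is 1 of 12876 genes, with the log2 of its mean normalized count on the x axis and its log2FC on the y axis. Members are drawn larger and lie between -2.89 and 3.11, with called members on both sides of 0.

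SLC3A2, also known as CD98 or 4F2hc, is the heavy subunit that most light subunits join. In hg19, its gene lies on chromosome 11 from 62623518 to 62656352. Normalized counts, which are counts scaled to the mean library, were 2823 and 2764 at 6 h and 6313 and 6532 at 24 h. The 24 h libraries were more than double those of 6 h, with little spread within a time. In bulk RNA such as this, a change in the share of a cell type and a change in RNA per cell cannot be told apart. The log2FC was 1.20 (SE, standard error, 0.0715), with an adjusted P of 4.46e-14.

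SLC7A5, or LAT1, exchanges leucine, other large neutral amino acids and thyroid hormones across the membrane, and its gene lies on chromosome 16 from 87863629 to 87903094. It had 7508 and 7556 normalized counts at 6 h and 16284 and 18903 at 24 h. The 24 h libraries differed more from each other than the 6 h libraries did, and both were far above them. The log2FC, 1.22 (SE 0.0817, adjusted P = 5.22e-13), differed from that of SLC3A2 by less than either SE.

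SLC7A11, or xCT, is the light subunit that takes up cystine in exchange for glutamate and so feeds glutathione synthesis, and its gene lies on chromosome 4 from 139085251 to 139163503. It went the other way, from 809 and 841 normalized counts at 6 h to 267 and 257 at 24 h. Both 24 h libraries lay far under both 6 h libraries. The log2FC was -1.66 (SE 0.0941, adjusted P = 1.73e-14).

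The remaining partners of SLC3A2 were not called or were too scarce to test. SLC7A6 (y+LAT2), which exchanges cationic for neutral amino acids, had 494 and 537 normalized counts at 6 h and 611 and 639 at 24 h. Its log2FC of 0.28 (adjusted P = 0.00893) was under the cutoff on size. The positions of SLC7A6 and SLC7A6OS overlap over 17317 bases, and since the strand setting of the counting is not given in the sources used here, their reads cannot be assigned with certainty. SLC7A6OS had a log2FC of 0.13 (SE 0.138). SLC7A7 (y+LAT1) had 142 and 127 normalized counts at 6 h and 114 and 118 at 24 h, a log2FC of -0.21 with an adjusted P of 0.218. SLC7A8 (LAT2) had 7 counts in each 6 h library and 3 and 1 at 24 h. SLC7A10 (asc-1) had between 1 and 4 counts in every library.

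Levels of different genes were compared per length, as normalized counts per kilobase of the MANE Select transcript, the reference transcript shared by RefSeq and Ensembl. SLC3A2 stood at 1498 and 1466 per kilobase at 6 h and 3349 and 3465 at 24 h. Its 6 light subunits SLC7A5, SLC7A6, SLC7A7, SLC7A8, SLC7A10 and SLC7A11 summed to 1882 and 1896 per kilobase at 6 h and 3756 and 4336 at 24 h. The summed light level was 1.26 and 1.29 times that of SLC3A2 at 6 h and 1.12 and 1.25 times at 24 h. SLC7A5 made up 87.5% ± 0.0770 (SD, n = 2) of the light level at 6 h and 95.4% ± 0.375 at 24 h. SLC7A11 made up 4.53% ± 0.103 (SD, n = 2) at 6 h and 0.676% ± 0.0868 at 24 h, while SLC7A6 had 4.37% at 6 h and 2.48% at 24 h and SLC7A7 had 3.42% and 1.38%. The ratio of SLC7A5 to SLC7A11 per kilobase was 19.7 and 19.0 at 6 h and 129 and 156 at 24 h. With 2 libraries against 2, an exact permutation test of 1 such ratio cannot go below a P of 0.333. These are levels of RNA, and the amounts of the protein pairs were not measured.

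**Figure D3:**
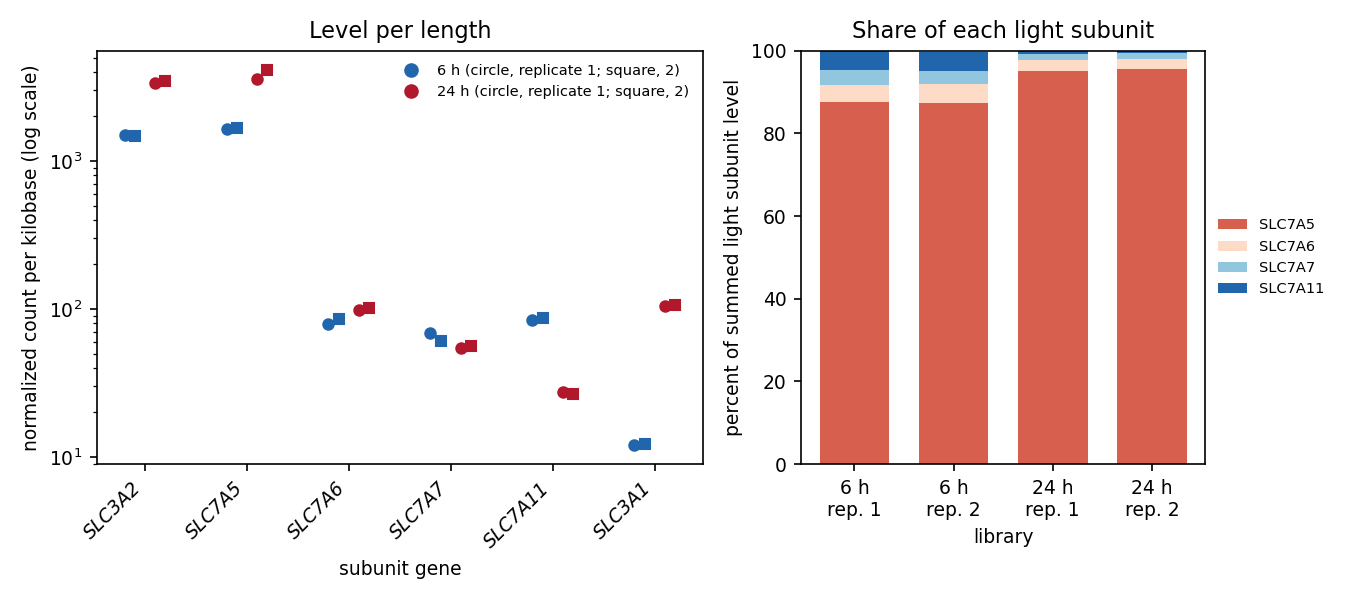
On the left, normalized counts per kilobase (log axis) of SLC3A2, its 4 tested light subunit genes and SLC3A1 are plotted for each library (blue, 6 h; red, 24 h). On the right, bars give the percent of the summed light subunit level taken by each light subunit gene in each library, without SLC7A8 and SLC7A10, which are too small to see. SLC3A2 and SLC7A5 rose and SLC7A11 fell, and the share of SLC7A5 went from 87.5% to 95.4%.

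SLC3A1, or rBAT, is the heavy subunit of the cystine and dibasic amino acid carrier of kidney and gut, and its gene lies on chromosome 2 from 44502599 to 44548633. It showed the largest rise of the tested members. It had 35.6 and 36.5 normalized counts at 6 h and 310 and 316 at 24 h, a log2FC of 3.11 (SE 0.162, adjusted P = 2.49e-15), or 8.65 times. Per kilobase it stayed low, at 12.1 ± 0.198 (SD, n = 2) at 6 h and 105 ± 1.53 at 24 h, beside 3407 ± 81.9 for SLC3A2 at 24 h. Its light partners were near 0, with 1 to 3 counts of SLC7A9 (b0,+AT) and at most 1 count of SLC7A13 (AGT1) in any library. SLC3A1 overlaps PREPL over 5214 bases, and PREPL was far more abundant, with 2632 and 2487 normalized counts at 6 h and 2183 and 2158 at 24 h. PREPL had a log2FC of -0.24 and was not called.

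Of the cationic transporters of the SLC7 family, which import arginine and lysine, SLC7A1 rose. SLC7A1 (CAT1) had 1858 and 1913 normalized counts at 6 h and 2696 and 3008 at 24 h, a log2FC of 0.60 (SE 0.0732, adjusted P = 6.90e-08). SLC7A2 (CAT2) had 3719 and 3390 normalized counts at 6 h and 4884 and 4913 at 24 h. The log2FC of 0.46 (adjusted P = 3.37e-06) was just under the cutoff on size. The 24 h libraries of both genes were above those of 6 h, where 81.8% of all genes had no overlap in either direction. SLC7A3, SLC7A4 and SLC7A14 had 0 counts in every library.

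The promoters of called members are shown to place these changes beside the reference sequence. RefSeq promoters (GRCh38.p14) were matched by symbol to 45 of the 59 members and to 10 of the 15 called members, not to SLC1A2, SLC3A1, SLC43A3, SLC6A15 or SLC7A11. The 250 bases before each start were searched on both strands for 4 motifs, chosen after the values were seen. TGATGNAA is the core read by C/EBP-ATF dimers, TGACNNNGC that of the antioxidant response element, CACGTG the E-box read by MYC and TFEB, and TGANTCA the site of AP-1. The antioxidant and AP-1 motifs can overlap, and the AP-1 motif was searched last, with the matches of the others known. Of the 35116 promoters, 3.14%, 10.9%, 6.34% and 6.57% held the 4 motifs in that order. Among the 9 promoters of the 5 matched higher genes, 0, 2, 1 and 2 held them. Among the 10 promoters of the 5 matched lower genes, 1, 1, 0 and 4 held them, the 4 with the AP-1 letters being SLC1A3, SLC36A4, SLC43A2 and SLC6A17. Of all 45 matched members, called or not, 2, 6, 9 and 10 held the motifs in at least 1 promoter. The AP-1 letters also occurred in SLC38A9, which was not called, and in SLC6A5, SLC7A8 and SLC6A14, which were not tested. A member can have several promoters, so counts of members are not directly comparable with shares of promoters. A link of any motif to the direction of change was not tested. These are matches of letters and not sites of binding. The promoters below are those of the 2 genes of the leucine carrier that rose, SLC3A2 (plus strand, chr11:62881449-62881698) and SLC7A5 (minus strand, chr16:87869508-87869757), and of 2 genes that fell, SLC43A2 (minus strand, chr17:1605035-1605284) and SLC6A17 (plus strand, chr1:110150244-110150493). SLC3A2 and SLC43A2 have 3 RefSeq promoters each, and the one shown is the one with a match. Capitals mark overlapping antioxidant and AP-1 letters in SLC3A2, the E-box in SLC7A5 and the AP-1 letters in SLC43A2 and SLC6A17.
SLC3A2: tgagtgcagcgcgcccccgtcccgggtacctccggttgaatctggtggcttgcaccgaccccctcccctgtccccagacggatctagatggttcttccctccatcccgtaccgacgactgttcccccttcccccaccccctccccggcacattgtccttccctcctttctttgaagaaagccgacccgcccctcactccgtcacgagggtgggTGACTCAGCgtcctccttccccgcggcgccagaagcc
SLC7A5: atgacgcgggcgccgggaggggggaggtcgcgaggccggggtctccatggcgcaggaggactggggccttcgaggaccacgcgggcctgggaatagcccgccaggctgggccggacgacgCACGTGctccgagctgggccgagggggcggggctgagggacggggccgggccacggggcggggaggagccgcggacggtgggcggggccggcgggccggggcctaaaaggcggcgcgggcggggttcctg
SLC43A2: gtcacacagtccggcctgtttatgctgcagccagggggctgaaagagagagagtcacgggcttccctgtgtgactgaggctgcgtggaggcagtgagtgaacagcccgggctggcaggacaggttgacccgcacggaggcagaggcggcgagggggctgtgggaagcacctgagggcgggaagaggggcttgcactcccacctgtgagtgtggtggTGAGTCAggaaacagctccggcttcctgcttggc
SLC6A17: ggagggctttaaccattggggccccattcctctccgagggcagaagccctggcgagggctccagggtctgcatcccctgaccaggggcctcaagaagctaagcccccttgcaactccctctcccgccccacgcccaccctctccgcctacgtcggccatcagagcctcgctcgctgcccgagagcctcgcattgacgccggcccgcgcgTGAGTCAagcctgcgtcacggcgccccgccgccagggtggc

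The glutamate carriers of the SLC1 family fell where they were called. SLC1A3 (EAAT1), a high-affinity glutamate and aspartate importer on chromosome 5 from 36606457 to 36688436, had 2011 and 1820 normalized counts at 6 h and 887 and 819 at 24 h. Its log2FC was -1.17 (SE 0.0766, adjusted P = 3.64e-13). SLC1A2 (EAAT2), the main glutamate importer of astrocytes, was scarce, with 55.1 and 55.6 normalized counts at 6 h and 9.96 and 4.87 at 24 h. The log2FC of -2.89 had the largest SE of the tested members, 0.345 (adjusted P = 4.54e-08). It went to -3.47 without replicate 1 of 24 h and to -2.45 without replicate 2 of 24 h, so the order of SLC1A2 and SLC6A17 changed with 1 library. SLC1A1 (EAAT3) had 91.8 and 94.0 normalized counts at 6 h and 72.7 and 77.9 at 24 h, a log2FC of -0.30 with an adjusted P of 0.137, and it overlaps SPATA6L, which was lower at 24 h with a log2FC of -1.01. All 3 had both 24 h libraries under both 6 h libraries, and the 2 times did not overlap in 81.8% of all genes.

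Neither exchanger of the family was called. SLC1A5 (ASCT2), which imports glutamine in exchange for other neutral amino acids, had 2273 and 2028 normalized counts at 6 h and 2774 and 3160 at 24 h. Its log2FC of 0.46 (SE 0.0777, adjusted P = 8.97e-06) was just under the cutoff, and it passed at 0.56 without replicate 1 of 24 h and at 0.55 without replicate 1 of 6 h. SLC1A4 (ASCT1) had 145 and 164 normalized counts at 6 h and 134 and 149 at 24 h, which overlap. SLC1A6 and SLC1A7 had 0 counts.

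Among the SLC38 genes, SLC38A7 and SLC38A1 rose. SLC38A7 (SNAT7), which exports glutamine and asparagine from lysosomes, had 742 and 801 normalized counts at 6 h and 1514 and 1551 at 24 h, a log2FC of 0.99 (SE 0.0764, adjusted P = 1.04e-11). SLC38A1 (SNAT1), a glutamine importer of the plasma membrane, had 4946 and 4687 normalized counts at 6 h and 7764 and 8273 at 24 h, a log2FC of 0.74 (SE 0.0733, adjusted P = 1.62e-09). In both genes the lower 24 h library was well above the higher 6 h library, and 81.8% of all genes had no overlap. SLC38A2 (SNAT2), known as the family member induced by amino acid shortage, was not called, with 19352 and 17620 normalized counts at 6 h and 20845 and 22611 at 24 h. The log2FC was 0.23 (SE 0.0815, adjusted P = 0.0143), under the cutoff on size.

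SLC38A2 was the most abundant member per length at both times. It had 4036 and 3675 normalized counts per kilobase at 6 h, beside 1648 and 1659 for SLC7A5, the next in order. At 24 h it had 4347 and 4716, beside 3574 and 4149 for SLC7A5, and the gap between the nearest libraries of the 2 genes was smaller than the SD of either gene. SLC3A2 was the third at both times and SLC1A5 the fourth. SLC38A1 was the fifth per length at 24 h, and its 959 and 1022 per kilobase overlapped the 962 and 1096 of SLC1A5. SLC38A2 and SLC7A5 together held 42.8% to 43.3% of the counts of all 59 genes at 6 h and 46.8% to 48.1% at 24 h. The 59 genes took 0.228% and 0.240% of all counts at 6 h and 0.301% and 0.323% at 24 h.

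Of the other SLC38 genes, none was called. SLC38A9, the lysosomal arginine sensor that signals to mTORC1, had a log2FC of -0.16 (SE 0.0916). SLC38A10 had one of 0.063 (SE 0.0713), with overlapping libraries, and SLC38A6 one of -0.22 (adjusted P = 0.0276). SLC38A6 overlaps TRMT5, which was higher at 24 h with a log2FC of 0.84, over 245 bases. SLC38A4 had 0 and 1 counts at 6 h and 7 and 6 at 24 h and was not tested. SLC38A11 had at most 4 counts in a library, and SLC38A5 and SLC38A8 had 0.

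Of the SLC36 genes, SLC36A4 fell. SLC36A4 (PAT4), a proline and tryptophan carrier, had 1811 and 1733 normalized counts at 6 h and 1214 and 1225 at 24 h, a log2FC of -0.54 (SE 0.0709, adjusted P = 2.35e-07) just past the cutoff. SLC36A1 (PAT1), which exports small amino acids from lysosomes, had 384 and 436 normalized counts at 6 h and 478 and 524 at 24 h. Its log2FC was 0.29 (adjusted P = 0.0125) and it was not called. SLC36A2 and SLC36A3 had at most 3 counts in a library.

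Within the SLC43 family, SLC43A2 fell and SLC43A3 rose. SLC43A2 (LAT4), which lets leucine, phenylalanine and methionine pass without an exchange partner, lies on chromosome 17 from 1472561 to 1532180. It had 1644 and 1642 normalized counts at 6 h and 682 and 721 at 24 h, a log2FC of -1.23 (SE 0.0758, adjusted P = 1.01e-13). SLC43A3, the purine base transporter, had 1071 and 1085 normalized counts at 6 h and 1826 and 1854 at 24 h, a log2FC of 0.77 (SE 0.0710, adjusted P = 3.51e-10). The gene overlapping SLC43A3, RP11-872D17.8, had at most 1.08 normalized counts. SLC43A1 (LAT3), the other leucine facilitator of the family, had a log2FC of 0.15 (SE 0.112, adjusted P = 0.229). Beside these, the leucine exchanger SLC7A5 was higher at 24 h while the leucine facilitator SLC43A2 was lower.

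Of 19 SLC6 genes, 6 were tested and 3 of these were called. SLC6A17 (NTT4), a neutral amino acid carrier known from synaptic vesicles, had 266 and 293 normalized counts at 6 h and 29.9 and 49.6 at 24 h. The log2FC was -2.81 (SE 0.177, adjusted P = 1.67e-13). It was -2.49 without replicate 1 of 24 h and -3.21 without replicate 2 of 24 h. SLC6A9 (GLYT1), a glycine importer, had 261 and 257 normalized counts at 6 h and 121 and 158 at 24 h, a log2FC of -0.90 (SE 0.136, adjusted P = 2.23e-06). It overlaps CCDC24, which had a log2FC of -0.057.

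SLC6A15, a carrier of branched-chain amino acids and proline, had 58.3 and 56.6 normalized counts at 6 h and 81.7 and 86.6 at 24 h. Its log2FC of 0.55 (SE 0.192, adjusted P = 0.0142) passed the cutoffs narrowly. The call was lost without any 1 of the 4 libraries and with DESeq2 or library size scaling, although the log2FC stayed between 0.51 and 0.60, so 7 higher members remained in each of those fits apart from the ones that gained SLC1A5 or SLC7A2. SLC6A6, the taurine importer, was the most abundant of the family, with 4218 and 3721 normalized counts at 6 h and 4484 and 4996 at 24 h and a log2FC of 0.26 (adjusted P = 0.00515). SLC6A8, the creatine importer, had a log2FC of -0.20 (adjusted P = 0.0643), and SLC6A16 one of 0.36 (adjusted P = 0.0911).

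The other 13 SLC6 genes had at most 5 counts in any library. They include the carriers of serotonin (SLC6A4), noradrenaline (SLC6A2), dopamine (SLC6A3) and GABA (SLC6A11, SLC6A13), the glycine carrier SLC6A5, the proline carrier SLC6A7, the betaine carrier SLC6A12 and SLC6A14, SLC6A18, SLC6A19 and SLC6A20 of epithelia. Of those named, SLC6A2, SLC6A3, SLC6A5, SLC6A11, SLC6A18 and SLC6A19 had 0 counts in every library. Across all 28 untested members, the highest count in any library was 7. A count of 0 still allows up to 3 counts in a library of this depth, which covers counting error only, and does not show that a gene is silent.

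**Figure D4:**
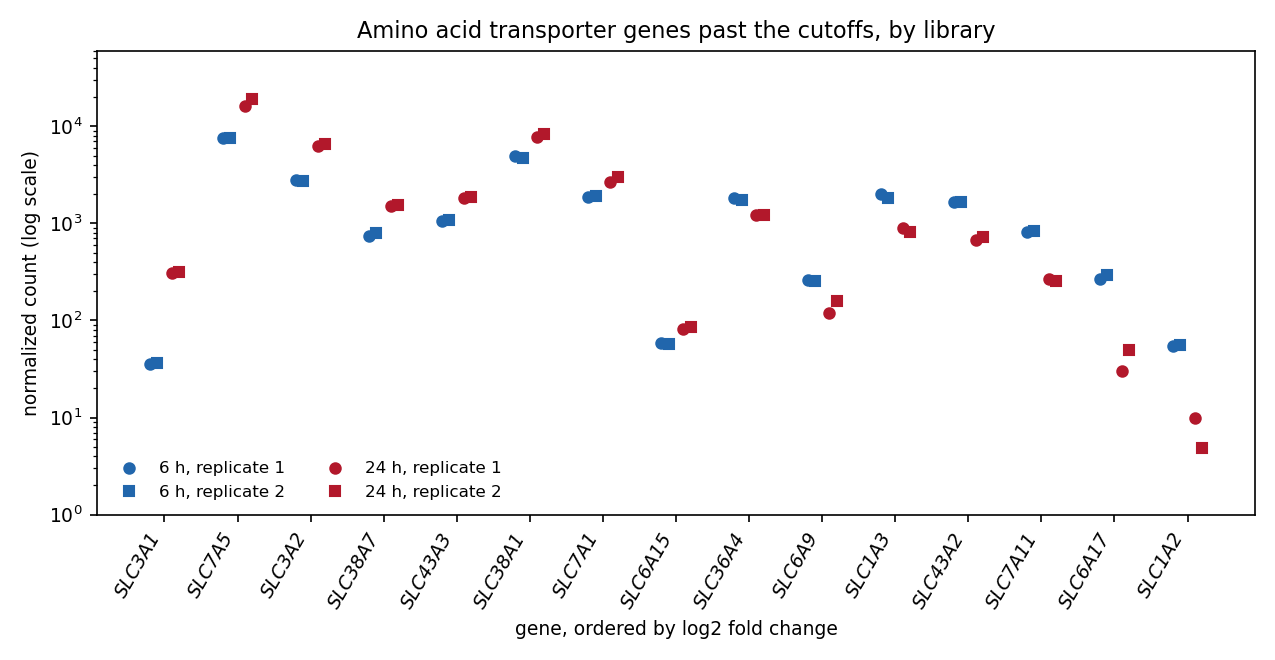
Normalized counts (log axis) of the 15 called members are plotted for each library, with genes ordered from the largest rise to the largest fall (blue, 6 h; red, 24 h; circles, replicate 1; squares, replicate 2). The libraries of a time lie close together except at 24 h in SLC6A17 and SLC1A2. No gene has overlapping times, which the cutoffs make likely, and 81.8% of all genes tested have none either.

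Genes around the transporters were counted in 4 lists, which share some genes, and are read beside the 17.4% higher and 17.7% lower of all genes. Of 24 genes of the amino acid response, in which the factor ATF4 induces genes when amino acids are scarce, 5 were higher and 5 lower, with a median log2FC of -0.079. STC2, a secreted glycoprotein, had the largest rise, with a log2FC of 2.54 (adjusted P = 1.83e-15). ASNS, which makes asparagine, had one of -1.33 and DDIT4, an inhibitor of mTORC1, one of -1.32. ATF4 itself had a log2FC of -0.22 and was not called. TRIB3, a pseudokinase induced by ATF4, was higher at 0.81 and MTHFD2, a mitochondrial folate enzyme, lower at -1.20. These last 3 genes were named after their values were seen.

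Among 30 tested of 31 genes of amino acid sensing by mTORC1, 8 were higher (26.7%) and 3 lower (10.0%). RRAGD, a Rag GTPase that brings mTORC1 to the lysosome, had a log2FC of 1.13 (adjusted P = 1.59e-11). FNIP2, a partner of folliculin, had one of -0.89 and SESN1, a leucine sensor family member, one of -0.83. Of 29 tested of 32 enzymes of amino acid metabolism, 9 were higher (31.0%) and 6 lower (20.7%). ARG2, which splits arginine, had a log2FC of -1.83, and ASNS had one of -1.33. Of 7 tested of 12 amino acid transporters of other families, 1 was higher and 0 were lower. It was CTNS, the cystine exporter of lysosomes, with a log2FC of 0.92 (SE 0.0850, adjusted P = 3.61e-10), so this lysosomal cystine exporter was higher while SLC7A11, the cystine importer of the plasma membrane, was lower.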

How the data were processed

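The submitters' processing notes name hg19 and STAR 2.3, and the methods name a later STAR. The counting program, annotation and strand setting are not given in the sources used here. The authors deposited raw counts of reads per gene, which were analysed here. They also deposited a signal, the count divided by 1 DESeq2 size factor per library, with its mean, and their own comparison (log2 fold changes with errors, a Wald score, and p-values), which were not used. The number of columns with per-sample values left unmapped was 0.

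Raw counts of all genes passing filterByExpr (12876 of 20372) were scaled by TMM and tested with edgeR 4.0.16 (quasi-likelihood, R 4.3.3), with time as the single factor. Cutoffs followed the methods in both directions, and P was adjusted by Benjamini-Hochberg over all genes tested. Standard errors come from the log2 fold change and its F statistic. Lengths are from GENCODE v44, which is on another build, so its positions were not used. Positions of genes are those of the table. The members and lists were chosen with earlier results of these data known. Called members are named with values, other tested members with their change, and from each list the 3 called genes with the largest change, apart from items not reported here. On simulated data for 24 h against 6 h over 12876 genes, edgeR called 100% of 50 genes raised to a fold of 2, 76% of 50 at 1.5, 80% of 50 lowered to a fold of 0.67 and 94% of 50 at 0.5, with 16 calls among the unchanged genes. In the simulation, genes of like abundance shared the same spread, and far fewer genes changed than were called in the data. These rates may therefore not hold for the data. DESeq2 1.42.0 was an alternative. Libraries of a time differed by more than sampling noise (chi-square per degree of freedom 7.87 at 24 h and 10.3 at 6 h) and were kept as separate replicates. Plots were drawn with matplotlib 3.10.9.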

Additional observations from a re-analysis of the deposited data

How the results depend on the processing

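The alternatives were other scalings and filters, DESeq2, a replicate block, other cutoffs, and each library left out. No member changed direction under any of them. With the cutoffs of the report, the number of lower members stayed at 7 in each fit except with at least 10 counts in every library, which left SLC1A2 untested. The 8 higher members became 14 with an adjusted P under 0.05 and no cutoff on size, and 3 with a log2 fold change over 1, and they numbered 7 to 9 with 1 library left out. With no filter on low counts, SLC38A4 was called higher (log2 fold change 3.37). SLC6A15 was the only member to lose its call in any fit with another scaling, tool or library set, with an unadjusted P of 0.0696 from DESeq2 and 0.0137 from edgeR with library size alone. SLC1A5 was called without replicate 1 of 24 h (0.56) or of 6 h (0.55), and SLC7A2 without replicate 1 of 6 h (0.53). Where leaving out a library left 1 at that time, the lone library is assumed to vary like the others. Replicate numbers 1 and 2 occur at both times, but nothing states what they mark, and the deviations of same-numbered libraries had a correlation across genes of 0.0757. With the replicate block, 8 members were higher and 7 lower, and no call changed. With the longest transcript in place of the MANE Select transcript, an alternative added after seeing the data, SLC7A5 made up 88.0% of the light level at 6 h and 95.7% at 24 h. The 6 h share moved by more than its SD. Both lengths were 4556 bases for SLC7A5 and 9645 for SLC7A11. The share could therefore change only through the other light subunits, and the ratio of these 2 genes could not change. Depth limits what can be said of the 28 untested members, and of SLC1A2 at both times, SLC3A1 and SLC6A15 at 6 h and SLC6A17 at 24 h, where counts were under 60.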
